A study of Homo sapiens with 6 samples.

Results

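The genes described here are 44 genes of glucose breakdown, the pentose phosphate pathway and the response to low oxygen, read in DMS114 cells after β-alanine. They were taken by gene symbol from a table of raw counts, which held all 44 among its 36458 symbols. DMS114 is a human cell line derived from small cell lung cancer and long in laboratory use. β-alanine is a free amino acid, absent from proteins and known as a building block of carnosine and coenzyme A. The treated cells received 2.5 mM β-alanine for 48 h and the control cells an equal volume of vehicle, with 3 libraries of polyadenylated RNA in each group. No genotype, other agent or passage is given in the labels, and separate cultures are not mentioned. The spread behind every p-value below is therefore that of the libraries and may be technical.

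Total counts ran from 14433801 to 32909568 in the β-alanine libraries and from 18814876 to 22072654 in the controls. β-alanine library 1, the shallowest, lay between the other β-alanine libraries and the controls on the leading principal component of expression. Its score was -6.95, that of β-alanine libraries 2 and 3 was -20.2 each, and the controls scored 16.6, 16.9 and 13.9. CPM here means counts scaled to one common library size, after TMM, a factor that aligns most genes between libraries. Of 8 neuroendocrine and small cell lung cancer markers, SYP and CHGA rose, NCAM1 fell, and the list summed to 124 to 133 CPM after β-alanine and 94.6 to 98.7 CPM in controls. SYP averaged 86.3 CPM after β-alanine and 61.0 CPM in controls, while the small cell lung cancer regulators POU2F3 and INSM1 were below 1 CPM in both groups. Endothelial markers summed to 0.182 to 0.240 CPM after β-alanine and 0.216 to 0.255 CPM in controls, leukocyte markers to 0.219 to 0.569 CPM after β-alanine and 0.5003 to 0.561 CPM in controls. Erythroid markers summed to 0.209 to 0.474 CPM after β-alanine and 0.487 to 0.714 CPM in controls, with PECAM1, VWF and PTPRC at 0 in controls. Of 5 fibroblast genes, DCN and COL1A1 fell and none rose, with a summed level of 215 to 232 CPM after β-alanine and 255 to 268 CPM in controls, DCN being the most abundant. KRT18 rose among 3 epithelial genes, which summed to 11.6 to 14.3 CPM after β-alanine and 8.64 to 9.57 CPM in controls. The part of these markers in the results below was not tested, and in bulk RNA fewer cells with a transcript and less of it per cell cannot be told apart.

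Glycolysis splits glucose into pyruvate in the cytosol, and lactate dehydrogenase then turns pyruvate into lactate, which leaves through proton-coupled transporters. The pentose phosphate pathway branches off early and yields NADPH and ribose phosphate for nucleotides. When oxygen is scarce, the prolyl hydroxylases encoded by the EGLN genes stop marking the alpha subunits of hypoxia-inducible factor (HIF) for destruction, and HIF raises transcription of most glycolytic genes together with genes of blood vessel growth, pH control and mitochondrial removal. HIF alpha protein is controlled mainly after translation, so transcripts of its targets are the usual RNA readout of the pathway.

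After β-alanine, 9 of the 43 members that could be tested rose, 3 fell and 31 were not called. SLC2A3, HK1, ALDOA, PGK1, LDHA, SLC16A3, RPIA, EPAS1 and ADM rose, while PFKL, ENO1 and PKM fell. Genes were called by the quasi-likelihood test of edgeR, at a Benjamini-Hochberg adjusted p below 0.05 over all 17331 genes tested. Over all tested genes 27.9% were called, 14.1% higher and 13.8% lower, and the share among members was the same 27.9%, so the count is at the background. CA9 failed the filter on low counts and is described by its counts.

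The changes were small and ran in both directions. The median log2 change was 0.03 over the members and -0.00 over all tested genes, and the median size without regard to sign was 0.11 over the members and 0.15 over all tested genes. All 3 β-alanine libraries lay above all 3 controls for 14 members and below them for 4, together 18 of 43. Over all tested genes 39.1% did not overlap, 19.9% above and 19.2% below. Members summed to 8628, 8461 and 8247 CPM after β-alanine and to 8716, 8612 and 8398 CPM in the controls, so the sums of the groups overlapped.

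**Figure D1:**
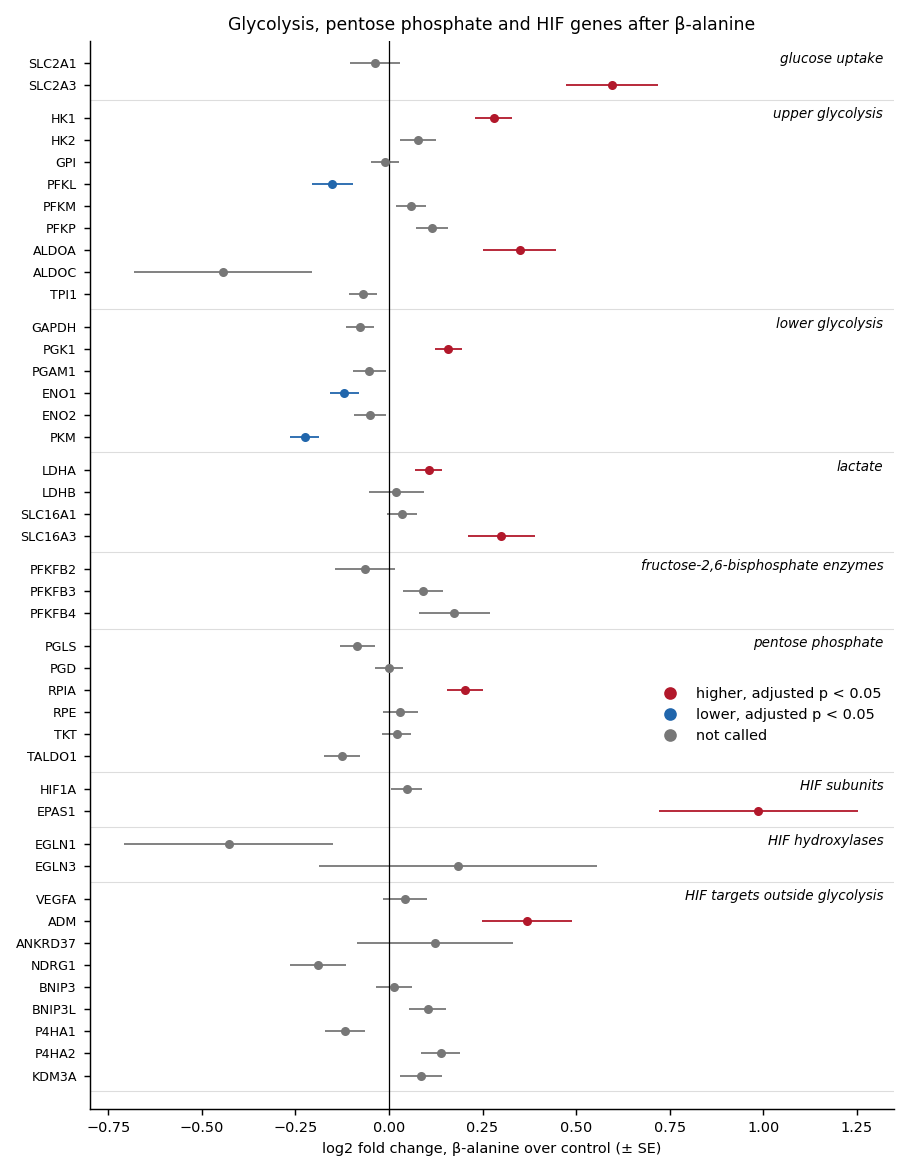
Log2 fold change of β-alanine over control with its SE (horizontal axis) for the 43 tested members, grouped by role from top to bottom. Red points were called higher, blue points lower and grey points were not called; SLC2A3 (0.60) and EPAS1 (0.99) lie farthest to the right among the called genes, and PKM (-0.23) farthest to the left.

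Glucose enters through facilitative transporters, of which SLC2A3 encodes the high-affinity neuronal form GLUT3 and SLC2A1 the widespread form GLUT1. SLC2A3 stood at 58.3, 81.7 and 78.4 CPM in the β-alanine libraries, in order of replicate number, against 48.5, 49.2 and 48.7 CPM in the controls. Every β-alanine library was above every control, and library 1 lay closest to the controls. The rise came to a log2 of 0.60 ± 0.12 (SE), or 51.2%, with an edgeR adjusted p of 0.0136, the largest change among called members other than EPAS1, which had few counts. SLC2A1 had 26.0, 27.6 and 25.6 CPM after β-alanine and 28, 27.9 and 25.4 CPM in controls, and the ranges overlapped. Its log2 change was -0.04 ± 0.07 (SE), with a 95% interval of -0.18 to 0.10 from the same fit. Per kb of transcript, SLC2A3 was the more abundant of the pair, at 18.6 CPM per kb after β-alanine and 12.5 in controls, against 7.19 and 7.39 for SLC2A1. SLC2A14, a near-identical copy of SLC2A3, had no count in any library.

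The upper part of glycolysis, from hexokinase to the triose phosphates, had 2 genes that rose and 1 that fell among 9. Hexokinases trap glucose by phosphorylating it, and HK1 is the form of most resting tissues. HK1 reached 95.3, 107 and 108 CPM after β-alanine, against 87.1, 87.0 and 82.9 CPM in controls, with no overlap, a log2 rise of 0.28 ± 0.05 (SE; edgeR adjusted p = 0.000233). HK2, the inducible form and a textbook HIF target, had 94.1, 83.9 and 86.1 CPM after β-alanine and 83.0, 83.5 and 82.7 CPM in controls. The groups of HK2 did not overlap either, but its change of 0.08 ± 0.05 (SE) was not called (edgeR adjusted p = 0.246, 95% interval -0.02 to 0.18). Without β-alanine library 1, the highest for HK2, the change was 0.030.

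Phosphofructokinase, the committed step, is built from PFKL, PFKM and PFKP subunits. PFKL, the liver subunit, gave 92.1, 84.1 and 80.6 CPM after β-alanine and 86.9, 100.2 and 96.3 CPM in controls. β-alanine library 1 was above control library 1, so the groups overlapped. The fall came to a log2 of -0.15 ± 0.06 (SE), at an edgeR adjusted p of 0.0489, next to the threshold. That call was lost without β-alanine library 2 or 3, without control library 2 or 3, and with DESeq2, unscaled totals or thinned counts, where every library is sampled down to the size of the smallest (adjusted p between 0.0646 and 0.271). PFKM, the muscle subunit, and PFKP, the platelet subunit, were at 139 and 111 CPM on average after β-alanine and 133 and 103 CPM in controls. Both had every β-alanine library above every control, with changes of 0.06 ± 0.04 and 0.11 ± 0.04 (SE) that were not called (edgeR adjusted p = 0.309 and 0.0533).

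Aldolase splits the hexose into trioses. ALDOA, its muscle and general form, was at 15.5, 19.8 and 15.4 CPM after β-alanine and 13.7, 13.1 and 13.2 CPM in controls, a log2 rise of 0.35 ± 0.10 (SE; edgeR adjusted p = 0.0104). β-alanine library 2 was the highest, and the other β-alanine libraries were nearer the controls. Without β-alanine library 2 the rise was 0.21, with an adjusted p of 0.147, and without control library 2 the adjusted p was 0.0600. ALDOA counts are uncertain, because 53.5% of its exon bases in GENCODE overlap other annotated genes, one of them on the same strand, and such reads may have been left out or split. ALDOC, the brain form, had 18, 35 and 33 counts after β-alanine and 35, 32 and 27 in the controls, a change of -0.44 ± 0.24 (SE) that was not called. GPI and TPI1, the isomerases before phosphofructokinase and after aldolase, were not called, at -0.01 ± 0.04 and -0.07 ± 0.04 (SE).

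In the lower part, where ATP is recovered, 1 gene rose, 2 fell and 3 were not called. PGK1, the phosphoglycerate kinase that makes ATP, had 639, 653 and 619 CPM after β-alanine, against 563, 572 and 576 CPM in controls. The groups were apart, and the log2 rise was 0.16 ± 0.04 (SE), or 11.6%, at an edgeR adjusted p of 0.00196. PKM, the pyruvate kinase of the final step, moved the other way, with 351, 328 and 329 CPM after β-alanine and 398, 397 and 382 CPM in controls. All β-alanine libraries were below all controls, a log2 change of -0.23 ± 0.04 (SE; edgeR adjusted p = 0.00015). PKM makes 2 splice forms, PKM1 and PKM2, which a count per gene does not tell apart.

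ENO1, the general enolase and one of the most abundant members, had 1749, 1618 and 1589 CPM after β-alanine and 1814, 1831 and 1737 CPM in controls. β-alanine library 1 exceeded control library 3, so the ranges overlapped, and the log2 change was -0.12 ± 0.04 (SE; edgeR adjusted p = 0.0265). Its call was lost without β-alanine library 2 or 3 and without control library 1 or 2 (adjusted p between 0.0884 and 0.144). GAPDH, PGAM1 and ENO2, the neuronal enolase, were not called, with log2 changes of -0.08, -0.05 and -0.05. GAPDH, often used as a loading reference, had 1738, 1702 and 1636 CPM after β-alanine and 1848, 1776 and 1729 CPM in controls. Of the 6 genes of the lower part, PGK1 alone had a change above 0, a direction kept under all 14 alternatives tried.

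The lactate end of the pathway had 2 genes that rose and 2 not called. LDHA, the lactate dehydrogenase subunit that favours lactate formation, had 513, 539 and 509 CPM after β-alanine and 487, 480.1 and 484 CPM in controls. The groups did not overlap, but the log2 rise was only 0.11 ± 0.04 (SE; edgeR adjusted p = 0.0322), and it was not called without β-alanine library 2, without any one control or with thinned counts (adjusted p between 0.0528 and 0.198). SLC16A3, which encodes the lactate exporter MCT4, had 14.5, 18.1 and 17.2 CPM after β-alanine and 13.1, 13.4 and 14.4 CPM in controls, a rise of 0.30 ± 0.09 (SE; edgeR adjusted p = 0.0156). The lowest β-alanine library exceeded the highest control only narrowly. SLC16A3 lost its call without β-alanine library 2 or 3, without control library 1 or 2 and with thinned counts (adjusted p between 0.0647 and 0.121). LDHB, the subunit of oxidative tissues, and SLC16A1, which encodes MCT1, were not called, at 0.02 ± 0.07 and 0.03 ± 0.04 (SE), with 95% intervals of -0.13 to 0.17 and -0.05 to 0.12. GENCODE places a second gene on the same strand over part of LDHB (33.4% of its exon bases), so the LDHB count is uncertain.

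**Figure D2:**
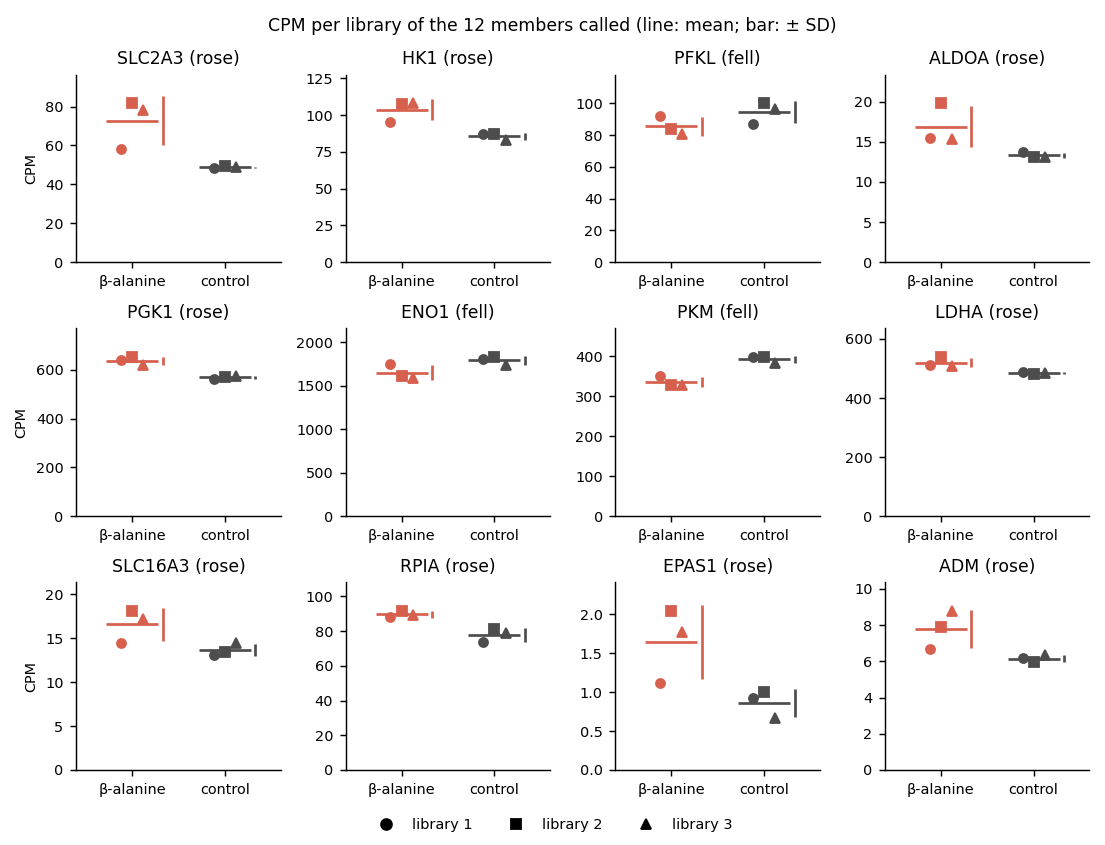
CPM in each library (vertical axes, all starting at 0) for the 12 called members, with β-alanine libraries on the left and controls on the right of each panel; horizontal lines are means and vertical bars ± SD (n = 3 per group). β-alanine library 1 (circle) lies nearer the control mean than libraries 2 and 3 in every panel except ALDOA, PGK1 and LDHA, where library 3 is the nearest. In PFKL and ENO1 the groups overlap.

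PFKFB enzymes make and break the fructose bisphosphate that activates phosphofructokinase, and PFKFB3 and PFKFB4 are known HIF targets. PFKFB2 averaged 46.9 ± 6.29 CPM after β-alanine and 49.7 ± 2.90 CPM in controls (SD, n = 3 each), and its groups overlapped. PFKFB3 averaged 52.8 ± 0.887 CPM after β-alanine and 49.7 ± 2.53 CPM in controls, and PFKFB4 14.4 ± 0.778 CPM after β-alanine and 12.8 ± 1.54 CPM in controls. None of the 3 was called, with 95% intervals of the log2 change of -0.23 to 0.11, -0.02 to 0.20 and -0.02 to 0.37.

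Of 6 pentose phosphate members, RPIA rose and the other 5 were not called. RPIA, the isomerase that forms ribose phosphate for nucleotides, had 88.1, 91.6 and 89.1 CPM after β-alanine, against 73.5, 81.1 and 78.9 CPM in controls. The groups were well apart, and the log2 rise was 0.20 ± 0.05 (SE; edgeR adjusted p = 0.00272). PGLS and PGD belong to the oxidative arm that yields NADPH. PGD averaged 297 ± 8.25 CPM after β-alanine and 297 ± 7.80 CPM in controls (SD, n = 3 each), and the 95% interval of its log2 change was -0.08 to 0.08. PGLS and TALDO1 had changes of -0.08 ± 0.05 and -0.13 ± 0.05 (SE), and RPE and TKT of 0.03 ± 0.05 and 0.02 ± 0.04. For TALDO1, a transaldolase, the edgeR adjusted p was 0.0603, and it was called lower under 4 of 14 alternatives, among them the fit without β-alanine library 1. The 6 genes summed to 968, 934 and 919 CPM after β-alanine and 946, 938 and 917 CPM in the controls.

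Among the oxygen-regulated subunits, HIF1A was abundant and not called, while EPAS1 was scarce and rose. HIF1A had 160.0, 155 and 159 CPM after β-alanine and 158, 146 and 154 CPM in controls, a change of 0.05 ± 0.04 (SE) with a 95% interval of -0.04 to 0.13. EPAS1, whose product has a narrower tissue range, had 16, 56 and 59 counts after β-alanine, or 1.11, 2.04 and 1.77 CPM, against 17, 22 and 13 counts, or 0.919, 1.00 and 0.663 CPM, in controls. β-alanine library 1 was just above the highest control, and libraries 2 and 3 were clearly higher. The log2 rise was 0.99 ± 0.27 (SE; edgeR adjusted p = 0.00783), and without β-alanine library 2 it was 0.82 with an adjusted p of 0.0668. DESeq2 gave no adjusted p for EPAS1. Per kb of transcript EPAS1 stayed far below HIF1A, with EPAS1 at 0.318 and HIF1A at 40.3 CPM per kb after β-alanine and EPAS1 at 0.167 and HIF1A at 39.0 CPM per kb in controls.

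The hydroxylase genes EGLN1 and EGLN3, both known to be induced by HIF, varied widely between libraries. EGLN1 had 5.29, 5.98 and 3.45 CPM after β-alanine and 8.22, 6.87 and 4.33 CPM in controls, and the 95% interval of its log2 change was -1.08 to 0.23. It was called lower without the low-count filter, with a replicate block and without control library 3. EGLN3 had 4, 25 and 23 counts after β-alanine and 13, 9 and 14 in the controls. The 95% interval of the EGLN3 change was -0.58 to 0.95, and neither gene was called.

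Of 10 HIF targets outside glycolysis, 9 could be tested, of which ADM rose and 8 were not called. ADM encodes adrenomedullin, a secreted vasodilator peptide. It had 6.68, 7.88 and 8.78 CPM after β-alanine and 6.16, 5.96 and 6.32 CPM in controls, with every β-alanine library higher. Its log2 rise of 0.37 ± 0.12 (SE; edgeR adjusted p = 0.0243) was not called with DESeq2, with thinned counts or without any one library other than β-alanine library 1 (adjusted p between 0.0530 and 0.194). VEGFA, the main vascular growth factor, had 52.4, 46.3 and 45.4 CPM after β-alanine and 45, 45.9 and 47.9 CPM in controls. β-alanine library 1 was the highest of the 6, and the others overlapped. VEGFA was not called, with a log2 change of 0.04 ± 0.06 (SE), and of -0.019 without β-alanine library 1.

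CA9, the carbonic anhydrase of the cell surface that is among the most strongly HIF-dependent genes, had 1 count over the 3 β-alanine libraries and 0 over the 3 controls. That is 0.0133 CPM after β-alanine (exact 95% Poisson interval 0.000337 to 0.0741, counting error only), while 0 counts in controls allow up to 0.0614 CPM by the same interval and 0.0499 CPM at a floor of 3 counts over the group. No difference in CA9 was detectable at this depth. BNIP3 and BNIP3L, receptors for removal of mitochondria, were not called, at 0.01 ± 0.05 and 0.10 ± 0.05 (SE). The collagen prolyl hydroxylase subunit P4HA2 had every β-alanine library above every control, at 57.8 ± 2.13 CPM after β-alanine against 52.7 ± 2.44 CPM in controls (SD, n = 3 each), without being called (edgeR adjusted p = 0.0553). P4HA1, the other subunit, averaged 53.0 ± 2.48 CPM after β-alanine and 57.4 ± 2.14 CPM in controls, and was not called. NDRG1 was lower in every β-alanine library, at 19.1 ± 1.33 CPM after β-alanine against 21.9 ± 0.518 CPM in controls, and missed the threshold (edgeR adjusted p = 0.0617). ANKRD37 and the histone demethylase gene KDM3A were not called, at 0.12 ± 0.21 and 0.09 ± 0.06 (SE).

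The promoter windows shown are those of called HIF target members that hold core letters of the hypoxia response element. Windows without a match were passed over, so a match in both directions follows from the choice. HK1, with the smallest p among the members that rose, was passed over for this reason. The letters searched were ACGTG and GCGTG on both strands, and a match on the reverse strand reads CACGT or CACGC as printed. ACGTG also lies inside CACGTG, the E-box bound by other factors. Each window runs 5′ to 3′ on the gene's strand from 250 bases before to 50 bases after the transcript start used in a RefSeq promoter table (GRCh38.p14), with matches in capitals. For PKM that start lies inside the gene's outer RefSeq bounds, so other PKM starts are not covered. Of the members, 31 were taken as HIF targets from general knowledge, a list that leaves out RPIA and EPAS1. For each direction the windows of called genes on it with the smallest p among those holding a match are printed, PGK1, ALDOA and ADM for genes that rose and PKM, ENO1 and PFKL for genes that fell.
PGK1: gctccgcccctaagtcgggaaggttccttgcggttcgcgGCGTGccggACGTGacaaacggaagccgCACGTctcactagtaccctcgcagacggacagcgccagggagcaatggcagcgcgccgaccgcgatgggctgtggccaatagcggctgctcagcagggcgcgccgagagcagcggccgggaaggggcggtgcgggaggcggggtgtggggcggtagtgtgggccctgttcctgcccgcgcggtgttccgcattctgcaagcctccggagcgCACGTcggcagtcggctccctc
ALDOA: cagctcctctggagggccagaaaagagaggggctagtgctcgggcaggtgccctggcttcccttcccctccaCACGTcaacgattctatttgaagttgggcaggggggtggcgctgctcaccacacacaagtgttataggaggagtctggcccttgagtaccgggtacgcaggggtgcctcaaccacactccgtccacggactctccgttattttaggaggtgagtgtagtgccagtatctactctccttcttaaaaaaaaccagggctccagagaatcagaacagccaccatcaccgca
ADM: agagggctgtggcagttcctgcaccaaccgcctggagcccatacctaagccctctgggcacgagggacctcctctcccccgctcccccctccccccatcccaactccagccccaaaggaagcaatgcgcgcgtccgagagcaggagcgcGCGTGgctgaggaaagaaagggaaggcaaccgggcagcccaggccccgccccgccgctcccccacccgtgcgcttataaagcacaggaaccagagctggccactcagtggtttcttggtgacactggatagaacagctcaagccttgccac
PKM: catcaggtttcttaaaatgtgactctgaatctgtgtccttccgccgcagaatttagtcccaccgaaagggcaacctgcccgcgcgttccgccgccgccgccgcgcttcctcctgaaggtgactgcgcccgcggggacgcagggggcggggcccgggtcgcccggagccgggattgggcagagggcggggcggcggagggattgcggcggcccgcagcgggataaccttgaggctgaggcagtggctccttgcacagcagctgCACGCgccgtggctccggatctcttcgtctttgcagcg
ENO1: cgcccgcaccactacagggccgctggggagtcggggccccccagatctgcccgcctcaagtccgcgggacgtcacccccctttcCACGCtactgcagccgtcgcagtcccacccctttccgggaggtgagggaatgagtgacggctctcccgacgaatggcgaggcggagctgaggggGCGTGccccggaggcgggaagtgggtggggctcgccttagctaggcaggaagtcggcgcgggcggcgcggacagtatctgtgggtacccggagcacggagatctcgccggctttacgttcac
PFKL: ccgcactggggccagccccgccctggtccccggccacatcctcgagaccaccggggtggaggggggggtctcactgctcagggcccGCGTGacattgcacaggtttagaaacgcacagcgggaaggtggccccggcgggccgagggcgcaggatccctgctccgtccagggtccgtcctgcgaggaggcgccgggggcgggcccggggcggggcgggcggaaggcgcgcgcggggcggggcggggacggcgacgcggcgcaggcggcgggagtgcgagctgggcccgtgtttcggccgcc
The windows lie at chrX:78103998-78104297 (plus strand) for PGK1, chr16:30064029-30064328 (plus) for ALDOA, chr11:10304823-10305122 (plus) for ADM, chr15:72231141-72231440 (minus) for PKM, chr1:8878637-8878936 (minus) for ENO1 and chr21:44299803-44300102 (plus) for PFKL.

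PGK1 held 4 matches, the most of these 6, and ALDOA and ADM held 1 each. ENO1 held 2, PKM 1 and PFKL 1, all GCGTG. The PGK1 window held 3 ACGTG and 1 GCGTG, ALDOA 1 ACGTG and ADM 1 GCGTG. No window was found for SLC2A3, SLC16A1, PFKFB2, VEGFA, NDRG1 and BNIP3L. Of the 38 windows found, 26 (68.4%) held either motif, against 48.4% of 27303 RefSeq windows of the same length and 63.2% of 11372 windows of tested genes. Among called members 6 of the 8 windows of genes that rose and all 3 windows of genes that fell held a match, against 16 of 26 windows of members not called. The window of CA9, which was not tested, also held one. HK1 and SLC16A3 rose with no match in their windows, and LDHA, which rose, held 6, counting both strands. BNIP3 and ALDOC, not called, held 6 and 5. A CACGTG counts once on each strand, and LDHA held 2 of them, BNIP3 1 and ALDOC 1. A match here is a run of letters and not evidence of binding.

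The balance within families was compared as the log2 ratio of CPM per kb between related genes in the same library, which no scaling can alter. Of 14 pairs, 5 had all β-alanine libraries on one side of all controls. SLC2A3 over SLC2A1 was 1.07, 1.47 and 1.52 after β-alanine and 0.70, 0.72 and 0.84 in controls, a mean difference of 0.60. P4HA2 over P4HA1 was -0.17, -0.11 and -0.05 after β-alanine and -0.33, -0.34 and -0.41 in controls, and PFKP over PFKL was 0.42, 0.56 and 0.57 after β-alanine and 0.36, 0.23 and 0.18 in controls. In these 3 pairs the ratio was higher in every β-alanine library than in every control. EPAS1 over HIF1A differed by 0.86 and ALDOC over ALDOA by -0.75, both resting on low counts in the first-named gene. In each of the 5 the exact two-sided permutation p was 0.1, the smallest that 3 against 3 libraries allows (0.280 adjusted over the 14 pairs), so none could pass 0.05. The other 9 pairs overlapped, among them LDHB over LDHA, at -3.82, -3.95 and -3.95 after β-alanine and -3.85, -3.89 and -3.74 in controls, and ENO2 over ENO1, at -4.49, -4.36 and -4.29 after β-alanine and -4.46, -4.45 and -4.43 in controls.

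**Figure D3:**
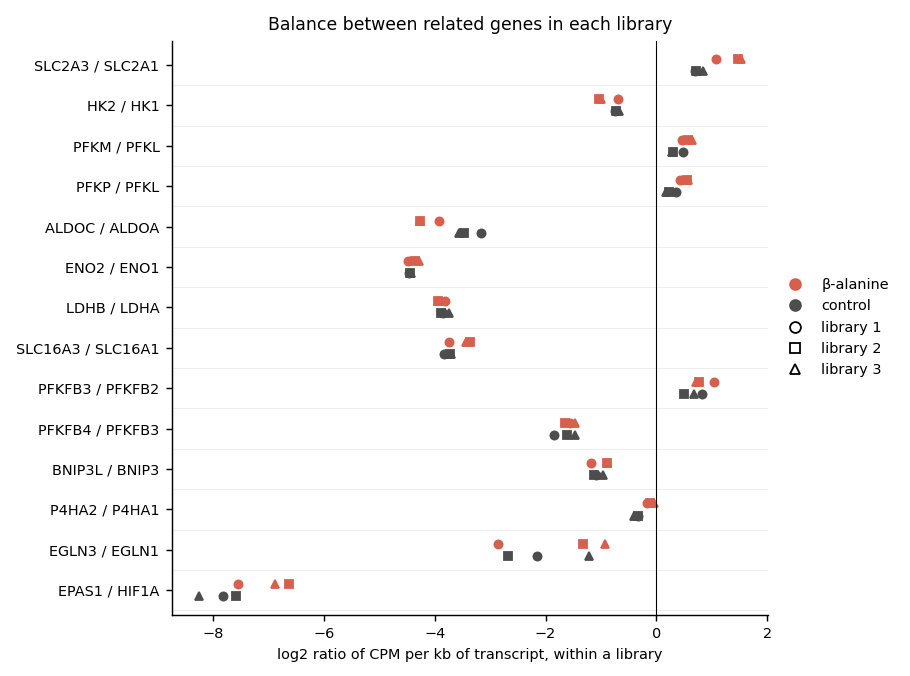
Log2 ratio of CPM per kb of transcript between related genes within each library (horizontal axis) for 14 pairs, with β-alanine libraries in red above control libraries in grey. The pairs SLC2A3 / SLC2A1, PFKP / PFKL and P4HA2 / P4HA1 lie to the right of the controls in all 3 β-alanine libraries, and LDHB / LDHA overlaps.

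PGK1, PKM, HK1, RPIA and SLC2A3 were called under all 14 alternatives tried, with log2 changes of 0.14 to 0.18 for PGK1, -0.26 to -0.21 for PKM, 0.25 to 0.33 for HK1, 0.16 to 0.23 for RPIA and 0.51 to 0.71 for SLC2A3. SLC2A3 came next to the threshold without β-alanine library 3 or any one control (edgeR adjusted p between 0.0426 and 0.0492). The highest edgeR adjusted p was 0.0279 for RPIA, 0.0235 for PGK1, 0.00437 for PKM and 0.00404 for HK1. Without β-alanine library 1, 13 members rose and 9 fell, 51.2% of the 43, while 36.2% of all tested genes were called. The members added as lower were TPI1, GAPDH, PGAM1, PGLS, TALDO1 and P4HA1, and those added as higher were PFKP, BNIP3L, P4HA2 and KDM3A. In that fit TPI1, GAPDH, PGAM1, ENO1 and PKM were all lower and PGK1 was higher. Without β-alanine library 2, 4 rose and 1 fell, 11.6% of members against 17% of all tested genes. Without β-alanine library 3 the counts were 7 and 1, 18.6% against 18.9%. Without control library 2 they were 5 and 1, 14% against 17.5%. In these 3 fits the share among members was not above that of all tested genes. It was 20.9% against 20.7% without control library 1, and 25.6% against 21.3% without control library 3.

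**Figure D4:**
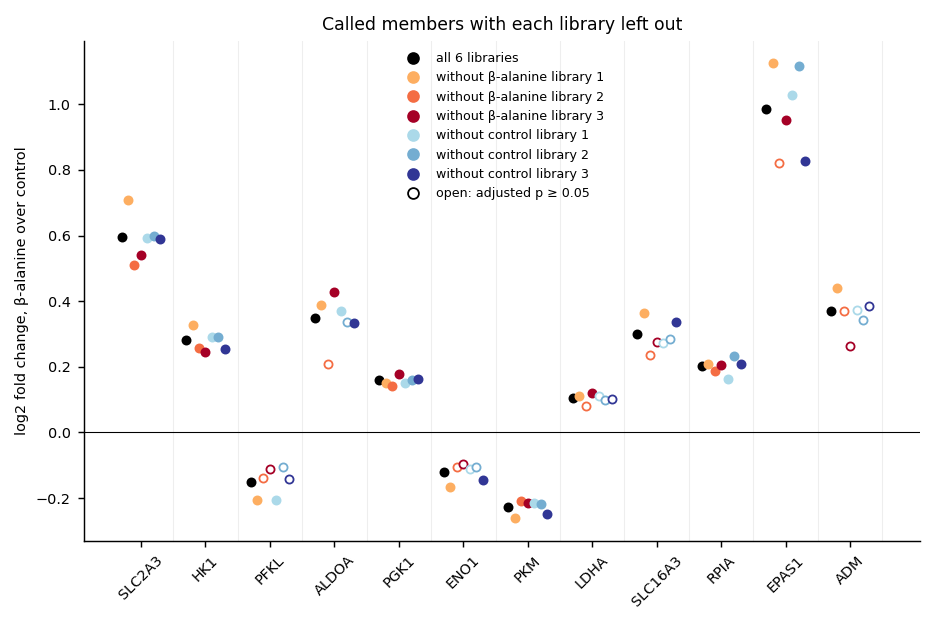
Log2 fold change of β-alanine over control (vertical axis) for the 12 called members, fitted with all 6 libraries (black) and with each library left out (colours). Filled points had an adjusted p under 0.05 and open points did not: SLC2A3, HK1, PGK1, PKM and RPIA stayed filled throughout, and ADM was called without a library only when that library was β-alanine library 1.

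Further genes of the same pathways, 85 in all and 68 tested, gave 15 rises and 10 falls, 36.8% called against the background of 27.9%. The list was chosen with earlier results of these data known, so its share is not independent of them. It was 66.7% in sugar handling and 50% in each of the lactate and pentose phosphate lists. In HIF machinery it was 16.7% and in HIF targets 25.8%. Among 15 tested genes of sugar handling, 6 rose and 4 fell. PGM1, which links glycogen to glycolysis, fell to 33.8 ± 0.368 CPM after β-alanine, against 48.7 ± 2.75 CPM in controls (SD, n = 3 each), a log2 change of -0.53 ± 0.06 (SE; edgeR adjusted p = 1.26e-06). BPGM, the mutase that diverts a glycolytic intermediate into bisphosphoglycerate, rose by 0.50 ± 0.07 (SE; edgeR adjusted p = 2.53e-05). The insulin-regulated transporter SLC2A4 rose by 0.61 ± 0.13, SLC2A12 by 1.11 ± 0.26 with means of 1.72 CPM after β-alanine and 0.786 CPM in controls, and TIGAR, a phosphatase that lowers glycolytic flux, by 0.38 ± 0.11. The transporters SLC2A8 and SLC2A10 changed by -0.40 ± 0.13 and -0.26 ± 0.09, and ADPGK, an ADP-dependent glucokinase, by -0.15 ± 0.05 (SE).

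Of 6 tested genes for lactate and pyruvate, MPC2, a subunit of the mitochondrial pyruvate carrier, rose by 0.30 ± 0.05 (SE), and BSG, the chaperone of MCT1 and MCT4, and the lactate dehydrogenase LDHD changed by -0.15 ± 0.04 and -0.49 ± 0.13. MPC1, the partner of MPC2, was not called (-0.16 ± 0.10). Among 4 tested pentose phosphate genes H6PD, the enzyme of the endoplasmic reticulum, changed by -0.23 ± 0.05 and PRPS1, which makes the activated ribose for nucleotides, by 0.11 ± 0.04, both called. Of 12 genes of HIF machinery, HIF3A, another alpha subunit, rose to 5.88 ± 0.850 CPM after β-alanine, against 3.20 ± 0.418 CPM in controls (SD, n = 3 each; log2 0.89 ± 0.15, edgeR adjusted p = 0.000136), and CUL2, the scaffold of the ligase that ubiquitinates HIF alpha, rose by 0.26 ± 0.04. ARNT, the constant partner of the alpha subunits, was not called (0.06 ± 0.04).

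The 31 further HIF targets tested gave 5 rises and 3 falls, 25.8% called, near the background. JMJD6 and MXI1 rose by 0.35 ± 0.05 and 0.30 ± 0.06 (SE), and BHLHE40 and FAM162A by 0.53 ± 0.14 and 0.18 ± 0.06. STC2 also rose, by 0.61 ± 0.21 (SE; edgeR adjusted p = 0.0336), with means of 1.92 CPM after β-alanine and 1.26 CPM in controls. Its call was not followed over the alternatives. The collagen-modifying enzymes PLOD1 and LOXL2 changed by -0.34 ± 0.05 and -0.25 ± 0.06, and ZNF395 by -0.36 ± 0.06, all lower. HILPDA, DDIT4, ERO1A and ANGPTL4 were among the 23 not called, at -0.00 ± 0.08, -0.10 ± 0.06, 0.04 ± 0.05 and -0.20 ± 0.26. They were picked after their values were seen, so they do not stand for the list. ANGPTL4 had low counts, with means of 1.14 CPM after β-alanine and 1.39 CPM in controls. The calls of TIGAR, ADPGK, SLC2A8, SLC2A10, LDHD, BSG, PRPS1, BHLHE40 and FAM162A were each lost without at least 1 library.

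By RefSeq on GRCh38.p14, the genes with the calls kept throughout lie at chr12:7919230-7936187 (SLC2A3), chr10:69270000-69401882 (HK1), chrX:78104248-78129295 (PGK1), chr15:72199029-72231591 (PKM) and chr2:88691673-88750929 (RPIA), and EPAS1 at chr2:46297407-46386697. In GENCODE, exons of 26 of the 44 members overlap another annotated gene, and for 7 the overlap covers over 10% of exon bases, ALDOA, ALDOC, ANKRD37, CA9, GAPDH, LDHB and RPE. Since the use of strand is not stated, reads of such pairs cannot be told apart. Calls among the further genes share this limit. Overlap covers 45.6% of exon bases in TIGAR and 34.9% in ZNF395, each at least in part by a gene on the same strand. In SLC2A12 (38.9%) and MPC2 (22.5%) the overlapping gene is on the opposite strand. For 15 members the table also lists pseudogene rows named after them, whose counts came to at most 1.6% of the member's own.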

How the data were processed

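RNA of 3 β-alanine and 3 control libraries of DMS114 cells was measured, with groups and replicate numbers taken from the titles. The deposited values are whole-number counts for each gene symbol. The submitters' processing notes name the build GRCh38 and the tools bcl2fastq, featureCounts 2.0.1, STAR 2.7.3a, Trimmomatic 0.39 and DESeq2, with no order. Settings, annotation and use of strand: not given in the sources used here. Genes were filtered with filterByExpr and scaled by TMM, and the robust quasi-likelihood test of edgeR 4.0.16 (R 4.3.3, two-sided, no covariate) gave log2 fold changes of β-alanine over control, with Benjamini-Hochberg adjustment over 17331 genes and a threshold of 0.05. Tested on simulated data, it found most of the changes put in, with a larger share of false calls than the threshold allows for, so calls near the threshold are the least certain. The changes put in were all larger than those of most called members, so recovery of changes that small was not tested. The SE is the log2 change divided by the root of the test statistic. Lengths (principal transcript) and overlaps came from GENCODE release 29, promoters and positions from RefSeq (GRCh38.p14). Alternatives used limma 3.58.1 (voom), DESeq2 1.42.0, other scaling and filters, thinning, a replicate block and leaving out each library. Figures used matplotlib 3.10.9 in Python 3.11.15. Some marker genes are not reported here by name. Members and lists were chosen with earlier results of these data known. Per-library values are given for called members and for HIF1A, EPAS1, SLC2A1, HK2, LDHA, PKM, VEGFA and CA9; in each further list up to 4 called genes per direction with the smallest p are named, and other genes outside this rule were picked with values in view. Libraries held 14433801 to 32909568 counts, so low genes such as EPAS1, EGLN3 and CA9 are imprecise.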

Additional observations from a re-analysis of the deposited data

How the results depend on the processing

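Over 14 alternatives, each of the 12 called members kept its direction wherever a value was had, while 9 members not called changed sign under at least 1 alternative (GPI, LDHB, PFKFB2, PGD, RPE, TKT, EGLN3, VEGFA and BNIP3). VEGFA did so without β-alanine library 1 and ranged from -0.019 to 0.080 over the fits without 1 library. The median log2 change of all genes was -0.003 in the main fit, -0.005 with RLE size factors as another scaling, and 0.014 with unscaled totals. The members that fell numbered 5 with a filter of at least 1 CPM in 3 libraries and 5 with the replicate number as a block, against 3, and the cause was not tested. With that filter 33.3% of tested members and 31.1% of all tested genes were called. Leaving out 1 library gave 4 to 13 members that rose and 1 to 9 that fell. The same fits gave 1501 to 3204 rises and 1473 to 3294 falls over all genes, and 8 to 19 rises and 5 to 13 falls among the further pathway genes; the lowest counts came without β-alanine library 2 or control library 2 (for members that fell, also without β-alanine library 3), and the highest without β-alanine library 1. Same-numbered libraries correlated by 0.0655, 0.00236 and 0.105 in their deviations from the group means, so the numbers were not taken to pair libraries. For β-alanine libraries 1 and 3 the best-matching control had the same number, and for β-alanine library 2 it was control library 1. With the block 10 members rose, and 34.9% of members were called, against 29.8% of all tested genes. DESeq2, which left EPAS1 without an adjusted p, gave 7 rises and 2 falls among members, and limma-voom 9 and 3. The share called was 20.9% of members and 21.5% of all tested genes with DESeq2, and 27.9% and 28.6% with limma-voom. Low counts limit EPAS1, ALDOC, EGLN3 and CA9.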
